A study of Mus musculus with 6 samples.

Results

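The genes described here encode the proteins of the cytosolic ribosome, read in cultured mouse spermatogonial stem cells untreated or given bisphenol A (BPA), an industrial compound of plastics that acts on hormone receptors. They were chosen by name from the gene table: symbols made of Rpl or Rps, a number and at most one of the endings a, x, l, l1 or al, together with Rplp0, Rplp1, Rplp2 and Rpsa, and without the rows named as pseudogenes (-ps). This gave 84 of 34745 genes. Of these, 46 belong to the large subunit and 30 to the small subunit, here called core members, and 8 are paralogues whose symbols end in l, l1 or al. The name rule leaves out ribosomal protein genes with other symbols, such as Rps3a1 and Fau, whose values are given near the end.

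Both groups were cultures of spermatogonial stem cells, from which sperm are made throughout adult life, taken from DBA/2J X C57BL/6J mice of postnatal day 6, at passages 15 to 20. There were 3 libraries from untreated cultures and 3 from cultures that had 100 µM BPA in the medium for about 4 days. The labels name no solvent control, so BPA and any carrier cannot be told apart. They do not say that replicates were separate cultures or animals either, and p-values therefore measure only the spread between these samples.

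A ribosome joins a large subunit, which forms peptide bonds, with a small subunit, which reads the messenger RNA. Each holds ribosomal RNA and one copy of most of its proteins, so cells make the proteins in matched amounts. Their messenger RNAs are among the most abundant in dividing cells, and most begin with a stretch of pyrimidines (a 5′ terminal oligopyrimidine, or TOP, motif) through which growth signals set their translation. In the male germ line several ribosomal proteins encoded on the X chromosome have autosomal paralogues, which are used when the X chromosome is silenced during meiosis.

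Library totals were 13453280 to 22286517 gene counts, and 13287 genes passed the low-count filter. Levels are CPM, the gene's counts relative to a TMM-scaled library total (TMM, trimmed mean of M-values, is edgeR's default scaling). The summed level of 12 markers of undifferentiated spermatogonia was 1443 to 1570 CPM in untreated and 1372 to 1820 CPM in BPA libraries (1 higher and 2 lower of 12 tested). Of all genes tested, 4.35% were higher and 6.28% lower by edgeR. For other cells, 9 markers of Sertoli cells summed to 44 to 57 CPM untreated and 119 to 155 CPM with BPA (Rhox5 and Fshr at 0; 2 of 4 tested were higher), and 9 of fibroblasts to 301 to 349 and 225 to 475 CPM (0 of 7 tested were past the threshold by edgeR). The 4 macrophage markers summed to 56.5 to 60.6 CPM untreated and 29.8 to 43.2 CPM with BPA (0 of 2 tested were past the threshold by edgeR). The 6 of Leydig cells stayed at or under 1.3 CPM with 4 of them at 0. Whether these cells contribute to the differences below was not tested. In bulk samples a lower share of one kind of cell and less RNA per cell cannot be told apart.

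Start-site sequences are shown because the members share features there that the name rule did not use. RefSeq start sites of build GRCm38.p6 were matched by symbol for 63 of the 84 members, and the first-listed start of each was taken. The windows below run from 40 bases before the start to 20 bases from it onward, with the longest run of C and T within 20 bases of the start in capitals. The first 6 genes were lower with BPA, Rps24 and Rps4x were higher, and Rps27 and Rps27l are a parent and its paralogue, of which Rps27l was lower. Not every member past the threshold is printed. Left out are Rps7, Rps3, Rpl19 and Rpl7l1, whose longest runs had 5, 3, 5 and 3 bases. Runs of at least 8 bases were present in 5 of 10 lower members, 1 of 3 higher and 22 of 49 in neither direction.
Rpl15, chr14:18270967-18271026, minus strand: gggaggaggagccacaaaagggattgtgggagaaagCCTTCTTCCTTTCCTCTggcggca
Rpl35, chr2:39005112-39005171, minus strand: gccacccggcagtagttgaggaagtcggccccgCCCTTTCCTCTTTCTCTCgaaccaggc
Rps10, chr17:27635225-27635284, minus strand: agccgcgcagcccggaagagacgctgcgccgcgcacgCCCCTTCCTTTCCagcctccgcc
Rpl38, chr11:114668540-114668599, plus strand: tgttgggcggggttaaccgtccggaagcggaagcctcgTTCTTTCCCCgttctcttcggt
Rpl37a, chr1:72711220-72711279, plus strand: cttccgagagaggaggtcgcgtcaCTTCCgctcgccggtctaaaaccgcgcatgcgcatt
Rpl27, chr11:101442205-101442264, plus strand: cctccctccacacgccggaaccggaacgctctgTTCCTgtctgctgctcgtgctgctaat
Rps24, chr14:24490638-24490697, plus strand: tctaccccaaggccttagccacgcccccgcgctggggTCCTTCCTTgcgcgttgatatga
Rps4x, chrX:102189372-102189431, minus strand: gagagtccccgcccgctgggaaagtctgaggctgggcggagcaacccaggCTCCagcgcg
Rps27, chr3:90213629-90213688, minus strand: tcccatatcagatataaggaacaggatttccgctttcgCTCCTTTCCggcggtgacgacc
Rps27l, chr9:66946046-66946105, plus strand: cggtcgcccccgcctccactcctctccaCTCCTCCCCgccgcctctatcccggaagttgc

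A run of at least 8 pyrimidines within 20 bases of the start was present in 28 of the 63 members (44.4%), against 15.9% of the first-listed starts of 27025 symbols. Rpl35 and Rpl15 had runs of 18 and 17 bases, while Rps4x had one of 4. The letters CTTTCC, searched on the gene's strand in the same 40 bases, were found in 10 members (15.9%) and in 1.9% of all starts. The letters CCGGAAG, which ETS-family factors such as GABP bind, were searched on both strands of the 300 bases around the start. They were in 24 members (38.1%) and in 9.12% of all promoters. Of the members that were lower with BPA and had a start, 7 of 10 held CCGGAAG, as did 0 of 3 that were higher and 17 of 49 that passed in neither direction. The median log2 fold change was -0.25 over the 24 tested members with these letters and -0.12 over the 38 without. For the pyrimidine run the medians were -0.24 (28 members) and -0.16 (34 members). These are matches of letters in RefSeq windows, described without a test, and the start used in these cells was not measured.

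Among core members the level, given as CPM per kb of coding sequence, had a median of 1903 over the 6 libraries. Counts are per gene while the divisor is coding length only, so a short coding sequence can raise the level. The 75 tested core members spanned 82.1 for Rpl23a to 15831 for Rpl41, which encodes the shortest of these proteins. The coding sequence of Rpl41 has 78 bases, against a gene length of 3269. By mean FPKM (376) Rpl41 ranked 38 among members, so it is not shown to be the most abundant. A level of at least 1000 was reached by 58 of 76. Next to Rpl41 stood Rps14 (9590), Rpl13a (9250) and Rpsa (8456). Rpsa, a small subunit protein also known as a laminin receptor, stood at 9194 ± 396 (SD, n = 3) untreated and 7718 ± 973 with BPA. Rpl13a was above Rpsa in both groups, at 10001 ± 641 untreated and 8499 ± 738 with BPA. By FPKM it was also above Rpsa in every library (5201 to 6024 against 3473 to 4286). The place of Rps14 (10583 ± 1269 untreated) is not fixed by these data. Its spread overlapped that of Rpl13a, and by mean FPKM (2144) it stood below Rpl13a and Rpsa. Levels under 500 were found in 7, among them Rpl35 (259) and Rps4x (241). For Rpl23a, annotated exons of Snord42b and Tlcd1 overlap 62.3% of its exon bases, and the annotation holds 19 near-identical copies. Reads that fit several genes can be lost from the counts, so the low end of the range is uncertain. Rpl24 had 1 count over all 6 libraries and was not tested. Its exons overlap those of another row, Gm28037, by 47%, and that row had 0 counts. The order of levels was nearly the same in both groups, with Spearman's rho 0.96 across 76 genes between group means and 0.93 for the least similar pair of libraries. These are correlations across genes that share libraries and gene models.

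With BPA, more ribosomal protein genes were lower than higher, and the changes were small. Of 83 tested members, 13 fell and 4 rose by edgeR's quasi-likelihood test with an adjusted p under 0.05, which is 20.5% of members against 10.6% of all genes tested. Genes called lower were 6.28% and genes called higher 4.35% of all genes tested. The median log2 fold change of members was -0.17, and that of all tested genes was 0.10. Members ran from -1.19 (Rpl3l) to 0.67 (Rps4x), and of those past the threshold Rpl37a was furthest from no change, at 0.446 of its untreated level. In 30 members all BPA libraries lay below all untreated ones (36.1%, against 15.7% of all genes), and in 12 all lay above (14.5%, against 15.6%). The higher share was thus near the background and the lower share above it. That background was not matched for level or gene length. Over 13273 tested genes the log2 fold change had a Spearman's rho of -0.24 with mean FPKM and 0.21 with gene length. Among core members these were -0.17 and 0.08. Members had a median gene length of 2477 bases, against 5146 for all tested genes. Whether level or length accounts for the excess was not tested.

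The split between higher and lower calls depended on scaling. With library size scaling 10 members were higher and 12 lower, beside 843 and 798 of all 13287 genes, and the median of all genes moved by 0.11. Relative to the median of all genes, the median member stood at -0.27 with TMM and -0.26 with library size scaling. When libraries were corrected by GC and length of the genes, the calls were 18 higher and 12 lower, beside 937 and 1276 of 13273 genes, with the median member at -0.09 relative to all genes. One library at a time also moved the counts. Without untreated replicate 1, 0 members were higher and 3 lower, and without untreated replicate 2 the counts were 0 and 4. Without BPA replicate 1 they were 0 and 6, without BPA replicate 3 they were 1 and 9, and without untreated replicate 3 they were 3 and 9. Without BPA replicate 2 they were 11 and 30. Calls over all genes moved the same way, from 166 higher and 285 lower without untreated replicate 1 to 1251 and 1653 without BPA replicate 2. The relative median member stayed between -0.33 and -0.20 in these 6 fits.

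**Figure D1:**
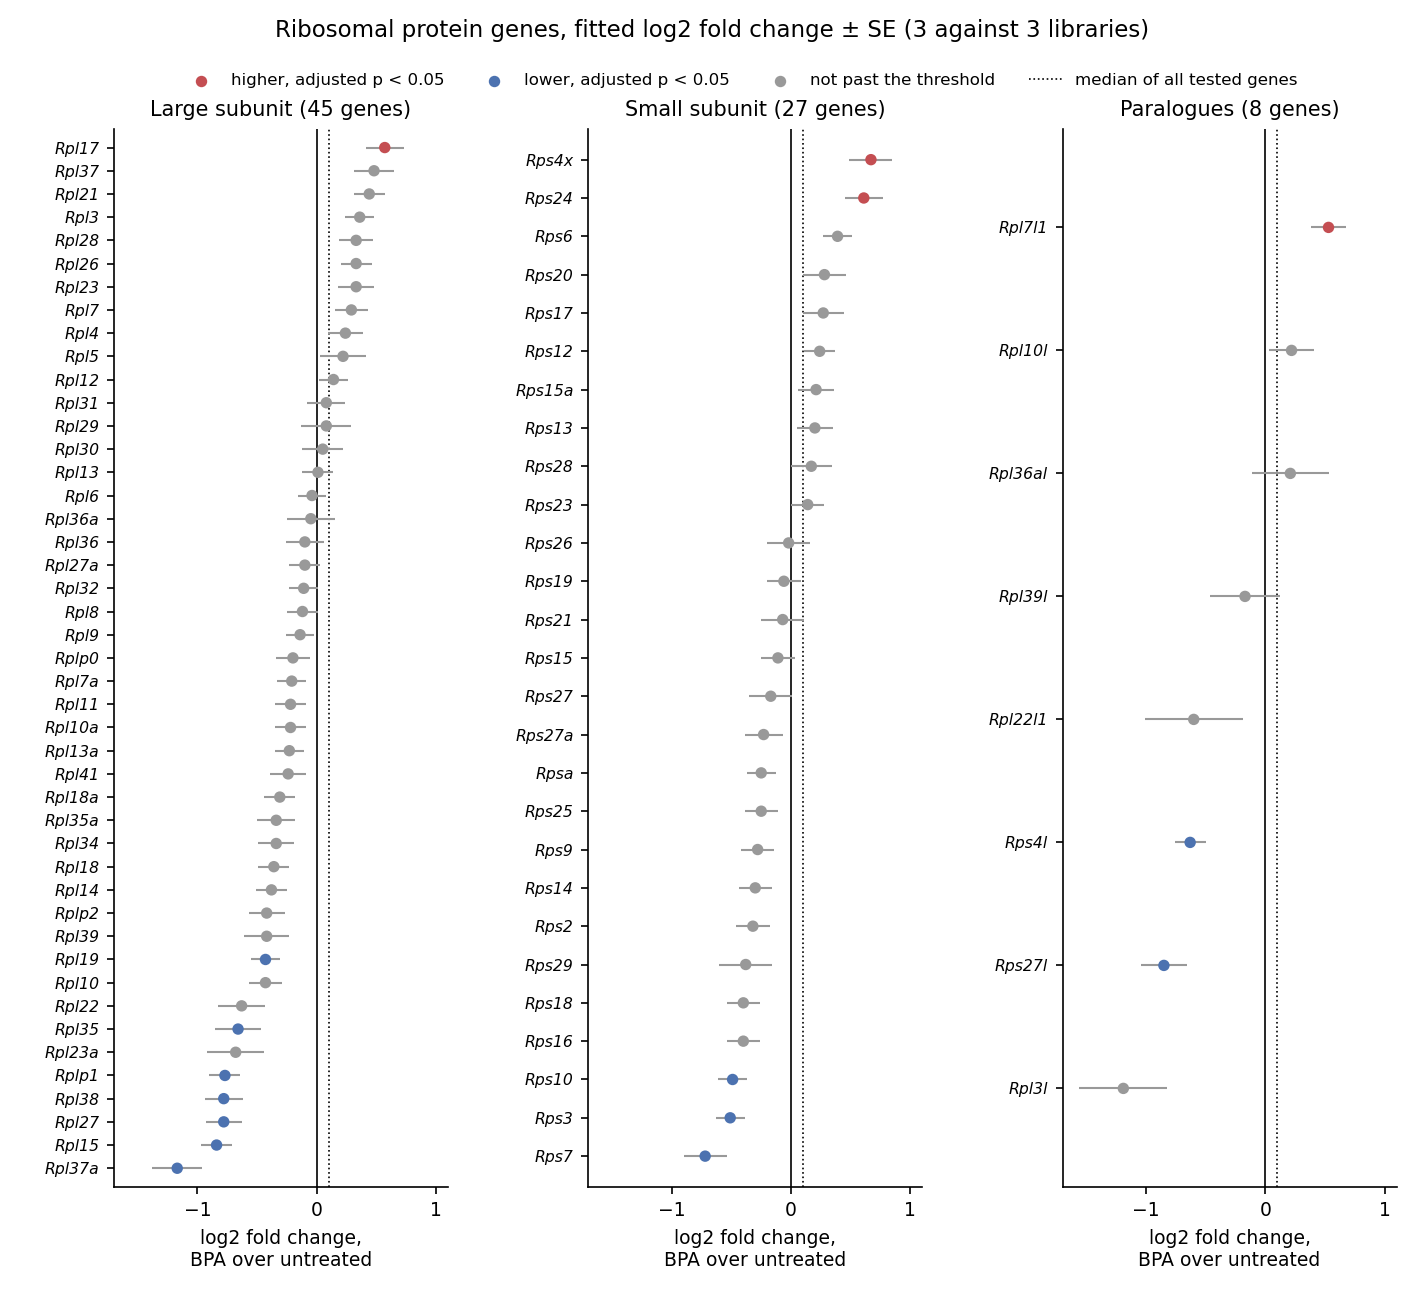
Log2 fold change (x axis, BPA over untreated, fitted by edgeR ± SE) of 80 tested members (y axis), in panels for the large subunit, small subunit and paralogues; red is higher, blue lower and grey not past the threshold, and the dotted line is the median of all tested genes. Of the 80 points, 52 lie below 0, and the range is -1.19 to 0.67.

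Summed over genes, ribosomal proteins took 11.4%, 10.8% and 10.6% of the counts in untreated replicates 1 to 3, and 10.5%, 9.87% and 10.4% with BPA. The groups did not overlap and differed by -0.702 percentage points (exact permutation p = 0.1, two-sided, the smallest that 3 against 3 libraries can give). The 10 core members with most counts went from 4.55% ± 0.174 (SD, n = 3) to 4.02% ± 0.146, a difference of -0.525 points (exact permutation p = 0.1). The CPM of the middle-ranked core gene in each library, which need not be the same gene, was 875 ± 34.1 untreated and 892 ± 29.7 with BPA (exact permutation p = 0.5). On summed FPKM, where counts are divided by gene length, the share was 18.7% ± 0.583 and 18.9% ± 0.254 with overlapping groups (exact permutation p = 0.5).

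The small subunit accounted for most of the difference in counts. Its core members took 4.97%, 4.68% and 4.54% of counts untreated and 4.39%, 4.25% and 4.22% with BPA, with no overlap (difference -0.445 points, exact permutation p = 0.1). The large subunit core took 6.29%, 5.94% and 5.88% untreated and 5.93%, 5.5% and 6% with BPA, with overlapping groups (difference -0.233 points, exact permutation p = 0.5). The subunits themselves were not told apart by a direct test. The log2 ratio of summed FPKM, large over small, was 0.34, 0.37 and 0.39 untreated and 0.36, 0.31 and 0.38 with BPA (exact permutation p = 0.6). On counts it was 0.35 ± 0.019 and 0.44 ± 0.067 (exact permutation p = 0.2), and per kb of coding sequence 0.52 ± 0.0057 and 0.54 ± 0.071 (exact permutation p = 0.7). Gene by gene there were 1 higher and 7 lower of 45 in the large subunit with a median of -0.20, and 2 higher and 4 lower of 30 in the small subunit with a median of -0.16. The shares past the threshold were 17.8% and 20%, beside 10.6% of all genes.

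**Figure D2:**
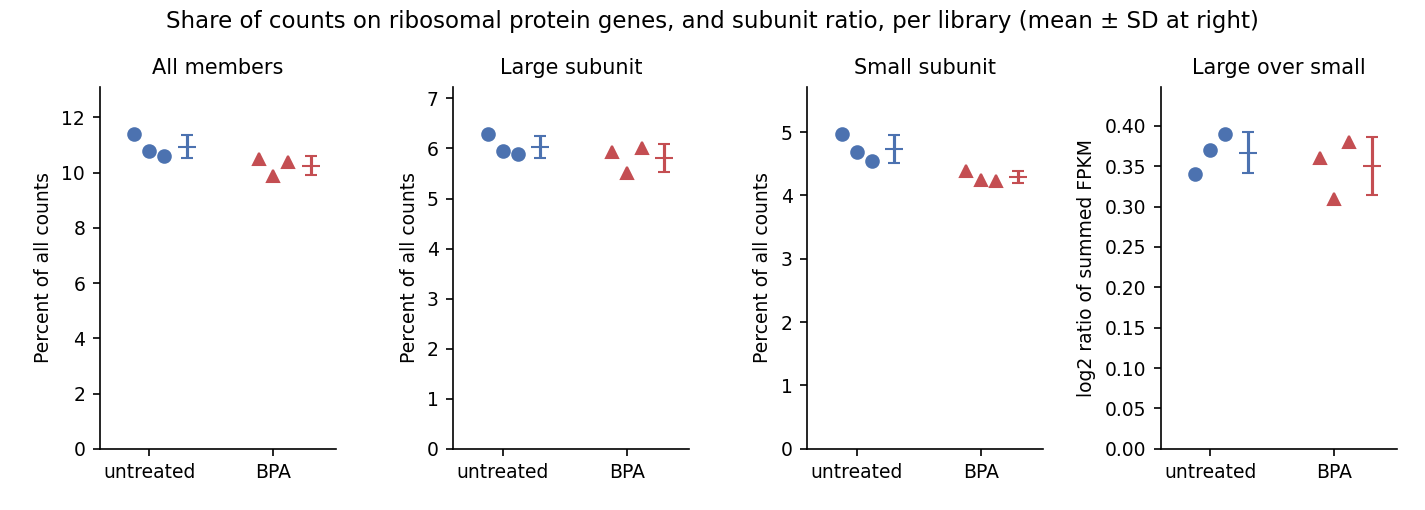
Percent of all gene counts on all members, the large subunit core and the small subunit core, and the log2 ratio of summed FPKM of large over small subunit (y axes), for each untreated (circle) and BPA (triangle) library, with the group mean ± SD at the right of each group. The small subunit share is lower in all 3 BPA libraries, the large subunit share overlaps, and the ratio overlaps at 0.31 to 0.39.

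In the large subunit, the protein-coding gene Rpl37a (ENSMUSG00000046330, chr1:72711260-72713809) in mm10, which encodes a zinc finger protein, fell most. It stood at 553, 463 and 517 CPM untreated and 146, 284 and 253 CPM with BPA (log2 fold change -1.17, SE 0.21, edgeR adjusted p = 0.00568). All BPA libraries were well below the lowest untreated one, with BPA replicate 1 the lowest. Rpl15 (ENSMUSG00000012405, chr14:18267823-18271391), a core protein of the subunit, was at 3089, 2745 and 2400 CPM untreated and 1495, 1672 and 1444 CPM with BPA (-0.84, SE 0.13, edgeR adjusted p = 0.00239). Its groups were also far apart. Rplp1 (ENSMUSG00000007892, chr9:61913284-61914538), one of the acidic proteins of the stalk that recruits elongation factors, went from 1728, 1422 and 1425 CPM to 916, 927 and 849 CPM (-0.77, SE 0.13, edgeR adjusted p = 0.00359). Rpl37a, Rpl15 and Rplp1 were the 3 of the 17 members past the threshold that also passed it without each library in turn, with adjusted p up to 0.0478, 0.0338 and 0.0462. After the correction for GC content and length they stood at -0.55, -1.02 and -0.10 (adjusted p = 0.0918, 0.129 and 0.587).

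Rpl27 and Rpl38 fell by the same amount. Rpl27 went from 1230, 1000 and 976 CPM to 546, 718 and 600 CPM (-0.78, SE 0.15, edgeR adjusted p = 0.00732) and did not pass without untreated replicate 1 (0.0704). Rpl38, known from mouse mutants for its part in translating Hox messenger RNAs, went from 306, 291 and 226 CPM to 148, 172 and 159 CPM (-0.78, SE 0.16, edgeR adjusted p = 0.01). Its BPA libraries lay close together and below every untreated one. It did not pass in the fits lacking untreated replicate 1, untreated replicate 2 or BPA replicate 1 (up to 0.0852), and was at -0.18 after the GC and length correction (adjusted p = 0.357). Rpl19, part of a bridge between the subunits, stood at 4090, 4009 and 3714 CPM and then 2930, 3111 and 2697 CPM (-0.43, SE 0.12, edgeR adjusted p = 0.0351). Of the 6 fits lacking 1 library, it passed in that lacking BPA replicate 2 (up to 0.172 in the others) and was at -0.01 after the correction. Rpl35, which sits by the exit of the peptide tunnel, was at 139, 101 and 114 CPM and then 70.4, 65.7 and 88.5 CPM (-0.66, SE 0.19, edgeR adjusted p = 0.047). Annotated exons of Arpc5l and Wdr38 overlap 66.2% of its exon bases, so its counts are uncertain. It passed in the fits lacking BPA replicate 2 or 3 and in no other (up to 0.227). It did not pass with library size scaling (-0.54, adjusted p = 0.102) or after the GC and length correction (-0.28, adjusted p = 0.418).

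Rpl17, also at the tunnel exit, was the large subunit member that rose. It stood at 754, 834 and 811 CPM untreated and 1467, 926 and 1171 CPM with BPA (0.57, SE 0.16, edgeR adjusted p = 0.0437). The groups did not overlap, although BPA replicate 2 was close to the untreated libraries, and of the 6 fits lacking 1 library it passed in that lacking BPA replicate 2 (up to 0.2 in the others). Rpl21 came just outside the threshold at 828, 861 and 710 CPM and 1149, 1072 and 1035 CPM (0.44, SE 0.13, edgeR adjusted p = 0.05). It has 58 near-identical copies in the annotation, and copies present in the table held 8.97% of the summed counts of gene and copies. Rpl37, the partner in name of Rpl37a, had the second-largest positive estimate of the subunit at 0.48 (SE 0.17, edgeR adjusted p = 0.0966) and overlapping groups, and was at 0.93 after the GC and length correction (adjusted p = 3.7e-04). Rpl3, which reaches towards the centre where peptide bonds form, was at 1738, 1756 and 1869 CPM and then 2234, 2398 and 2252 CPM, with groups that did not overlap (0.36, SE 0.12, edgeR adjusted p = 0.0708). After the correction Rpl17 stood at 0.70, Rpl21 at 0.29 and Rpl3 at 0.36 (adjusted p = 0.001, 0.0945 and 0.00291).

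In the small subunit, 4 members fell, among them Rps7, Rps3 and Rps10. Rps7 went from 2740, 2620 and 2161 CPM to 1843, 1126 and 1583 CPM (-0.72, SE 0.18, edgeR adjusted p = 0.0222), with BPA replicate 2 lowest. It did not pass when any 1 untreated library was left out (up to 0.124), nor with library size scaling (-0.60, adjusted p = 0.0662). Rps3, at the entry of the messenger RNA channel, went from 3455, 3384 and 3142 CPM to 2268, 2561 and 2201 CPM (-0.51, SE 0.12, edgeR adjusted p = 0.0209). Rps10, mutated in some families with Diamond-Blackfan anaemia, went from 2620, 2474 and 2244 CPM to 1687, 1838 and 1707 CPM (-0.49, SE 0.12, edgeR adjusted p = 0.025), with 28.7% of its exon bases shared with other annotated genes. Rps3 and Rps10 did not pass in the fits lacking untreated replicate 1, untreated replicate 2 or BPA replicate 1 or 3 (up to 0.124 and 0.151). In Rps7, Rps3 and Rps10 the highest BPA library was below the lowest untreated one. After the GC and length correction Rps7 and Rps3 kept their calls at -0.53 and -0.73, and Rps10 was at -0.23 (adjusted p = 0.161).

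Rps4x and Rps24 rose. Rps4x (ENSMUSG00000031320, chrX:102184941-102189394) stood at 143, 129 and 170 CPM untreated and 220, 286 and 198 CPM with BPA (0.67, SE 0.18, edgeR adjusted p = 0.0326). It did not pass in the fits lacking untreated replicate 1, untreated replicate 2 or BPA replicate 1 (up to 0.159). Rps24, one of the genes mutated in Diamond-Blackfan anaemia, was at 354, 314 and 251 CPM and then 455, 422 and 530 CPM (0.61, SE 0.16, edgeR adjusted p = 0.0317), and passed in the fit lacking BPA replicate 2 but in no other of the 6 (up to 0.122). The groups did not overlap in either gene. Both kept their calls after the GC and length correction, at 0.64 and 0.71. Rps6, the substrate of S6 kinases, was just outside at 1867, 1883 and 2008 CPM and then 2497, 2689 and 2380 CPM (0.39, SE 0.12, edgeR adjusted p = 0.0533), with groups that did not overlap, and at 0.66 after the correction (adjusted p = 0.0014). Rps6, like Rpl5 and Rpl11 below, lies outside the rule for named genes. These 3 were picked once their values were known.

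**Figure D3:**
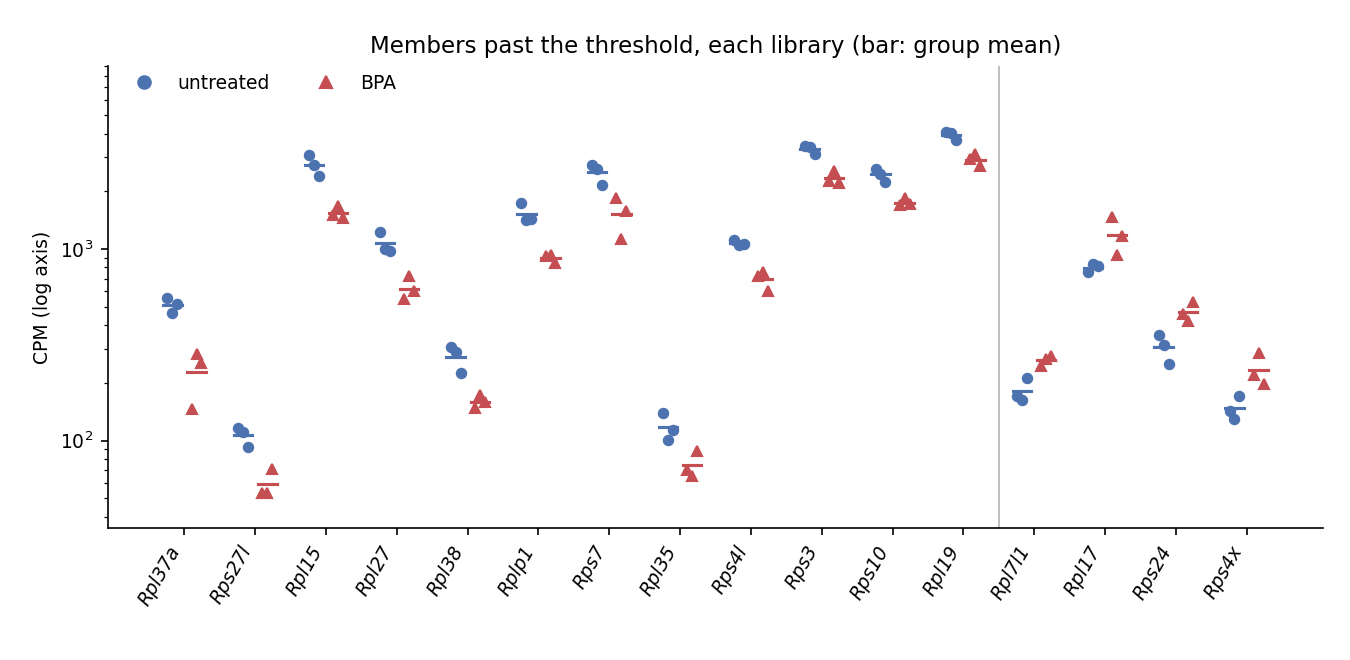
CPM on a log axis (y) of 16 members past the threshold (x axis, ordered by log2 fold change) in each untreated (circle) and BPA (triangle) library, with a bar at each group mean. The 12 genes left of the vertical line have all BPA libraries below all untreated ones, and the 4 to its right have all above.

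The stalk proteins did not all pass. Beside Rplp1, Rplp2 was at 1313, 1114 and 1069 CPM and then 723, 993 and 893 CPM (-0.42, SE 0.15, edgeR adjusted p = 0.0973), with groups that did not overlap. Rplp0, which anchors both, was at 4077, 3735 and 3432 CPM and then 2927, 3803 and 3039 CPM with overlap (-0.20, SE 0.14, edgeR adjusted p = 0.39). Rpsa was at 8307, 8422 and 7764 CPM and then 7180, 7505 and 5874 CPM (-0.25, SE 0.12, edgeR adjusted p = 0.231). Of the 10 members with the highest mean FPKM, Rplp1, Rps7 and Rpl19 passed the threshold, while Rpl13a, Rpl8, Rpsa, Rps15, Rps26 and Rps14 did not. The estimates of the latter lay between -0.30 (Rps14) and -0.02 (Rps26). Rpl13a, Rpl8 and Rps15 turned positive after the GC and length correction, at 0.18, 0.40 and 0.47 (edgeR adjusted p = 0.0454, 0.00136 and 0.00324). Their gene lengths of 1024, 862 and 837 bases are short beside the core median of 2615. Among core members the correction raised short genes relative to long ones, as given below, so these changes of sign are uncertain. Rpl5 and Rpl11, which bind Mdm2 together with 5S ribosomal RNA, did not pass, at 0.22 (SE 0.19) and -0.22 (SE 0.13).

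The 8 paralogues had a median log2 fold change of -0.39, with 1 higher and 2 lower (37.5%, beside 10.6% of all genes). Rps27l, a known p53 target related to Rps27, fell from 117, 111 and 92.2 CPM to 53.2, 53.4 and 70.8 CPM (-0.85, SE 0.19, edgeR adjusted p = 0.0165), not passing in the fits lacking untreated replicate 1, untreated replicate 2 or BPA replicate 1 (up to 0.104). Its parent Rps27 was at 503, 395 and 338 CPM and then 342, 323 and 434 CPM with overlap (-0.17, SE 0.18). The log2 ratio of Rps27l to Rps27 was -2.10, -1.83 and -1.87 untreated and -2.68, -2.59 and -2.61 with BPA. The ratio, taken on CPM + 0.5, was thus lower in all 3 BPA libraries by 0.69 on average (exact permutation p = 0.1, adjusted p over the 8 pairs 0.2). With 3 libraries a group no pair can pass 0.05 by this permutation test. The same p applies to the other 3 pairs whose groups did not overlap.

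Rps4l and Rps4x moved in opposite directions. Rps4l (ENSMUSG00000063171, chr6:148354656-148355598), a relative of Rps4x that GENCODE vM21 classes as a transcribed processed pseudogene, aligned to the Rps4x coding sequence with 79.8% identity. Its shortest transcript has 789 bases and the coding sequence of Rps4x 792. Rps4l had more CPM than Rps4x in every library, with 1108, 1051 and 1057 CPM untreated and 719, 761 and 604 CPM with BPA (-0.63, SE 0.13, edgeR adjusted p = 0.0121). It did not pass in fits lacking untreated replicate 1 or 2 (up to 0.0874) and was at -0.27 after the GC and length correction (adjusted p = 0.0888). The log2 ratio of Rps4l to Rps4x was 2.95, 3.02 and 2.63 untreated and 1.70, 1.41 and 1.60 with BPA, a difference of -1.29 (exact permutation p = 0.1, adjusted 0.2). Rps4x has 7 near-identical copies in the annotation, and Rps4l, without an annotated coding sequence, was not searched for copies. The treatment of reads with several alignments is not given, so which of the pair is more abundant is uncertain. Whether a protein is made from Rps4l was not measured.

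Rpl3l, the muscle-enriched relative of Rpl3, was rare. Its counts were 339, 202 and 186 untreated and 77, 150 and 209 with BPA, or 18.6, 15.9 and 13.5 CPM and then 5.04, 7.43 and 8.52 CPM (-1.19, SE 0.37, edgeR adjusted p = 0.0615). The log2 ratio to Rpl3 was -6.51, -6.75 and -7.06 untreated and -8.66, -8.24 and -7.96 with BPA, a difference of -1.51 (exact permutation p = 0.1, adjusted 0.2). Rpl10l, the autosomal relative of X-linked Rpl10 used in meiotic germ cells, was at 90.6, 110 and 109 CPM and then 149, 97 and 114 CPM with overlap (0.22, SE 0.19). Rpl10 was at 766, 819 and 782 CPM and then 606, 648 and 509 CPM without overlap (-0.43, SE 0.14, edgeR adjusted p = 0.0669), and was at -0.67 after the GC and length correction (adjusted p = 0.0317). Their log2 ratio was -3.07, -2.89 and -2.84 untreated and -2.02, -2.73 and -2.15 with BPA, higher by 0.63 (exact permutation p = 0.1, adjusted 0.2).

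Rpl7l1 was the paralogue that rose, from 171, 163 and 211 CPM to 246, 265 and 275 CPM (0.53, SE 0.15, edgeR adjusted p = 0.0458), although its coding sequence gave no blastn alignment to that of Rpl7. It passed in the fits lacking untreated replicate 3 or BPA replicate 2 and in no other (up to 0.203). Rpl7 had an estimate of 0.29 (SE 0.14), and the ratio of the pair overlapped between groups (difference 0.25, exact permutation p = 0.3). The last 3 pairs overlapped too. The ratio of Rpl39l, a testis-enriched relative of X-linked Rpl39, to Rpl39 was -1.16, -1.49 and -2.06 untreated and -1.55, -0.88 and -1.27 with BPA (difference 0.33, exact permutation p = 0.5). Rpl36al to X-linked Rpl36a differed by 0.19 (exact permutation p = 0.9), with BPA replicate 2 at -0.79 far from BPA replicates 1 and 3 at -2.54 and -2.06. Rpl22l1 to Rpl22 differed by 0.10 (exact permutation p = 0.8). Rpl22l1 itself was rare at 6.69 to 25.7 CPM, and Rpl22 went from 426, 375 and 321 CPM to 283, 164 and 274 CPM without overlap (-0.63, SE 0.20, edgeR adjusted p = 0.0686; -0.83 after the correction, adjusted p = 0.013).

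**Figure D4:**
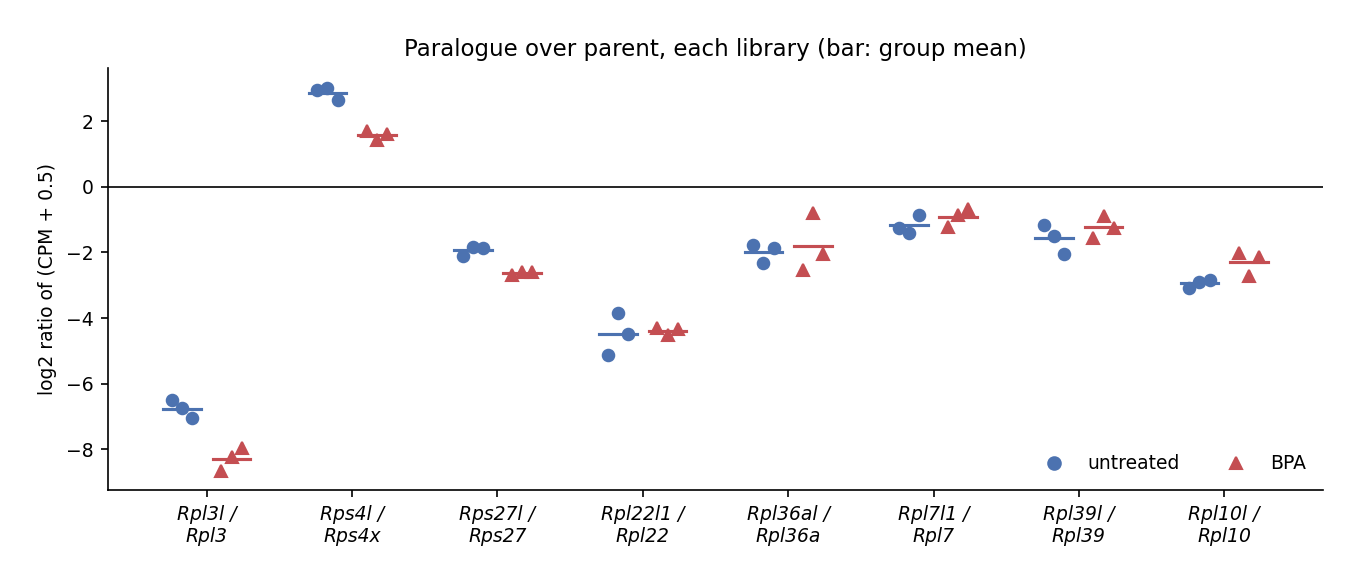
Log2 ratio of paralogue to parent, each as CPM + 0.5 (y axis), for the 8 pairs (x axis) in each untreated (circle) and BPA (triangle) library, with a bar at each group mean. Rps4l is above 0 in all libraries and lower with BPA, Rpl3l and Rps27l are also lower, Rpl10l is higher, and the other 4 pairs overlap.

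GC content moved with the fold changes. Across the 75 tested core members Spearman's rho between the GC content of the longest transcript and the log2 fold change was -0.32 (Pearson -0.32), and across 13273 tested genes it was -0.25. Genes share libraries and are not replicates. Of the genes that fell, Rpl37a, Rpl38, Rplp1 and Rps10 have GC contents of 58.3%, 59.1%, 57.3% and 60.3%, whereas Rpl15 and Rps27l have 43.2% and 43.1%. After each library was corrected for GC content and gene length, rho with GC content was 0.17 in core members and 0.01 over all genes. With gene length, rho after the correction was -0.47 in core members, against 0.08 before it, while over all genes it was -0.01. Among core members short genes were thus raised relative to long ones. The length used was that behind the FPKM values, which equalled the summed distinct exons in 59.5% of members. Corrected values of single members are therefore no surer than uncorrected ones. Of the 13 members that fell, 5 kept their call, among them Rps27l, Rpl27, Rps7 and Rps3, as did all 4 that rose. The part of GC content in the other 8 was not tested beyond this correction.

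**Figure D5:**
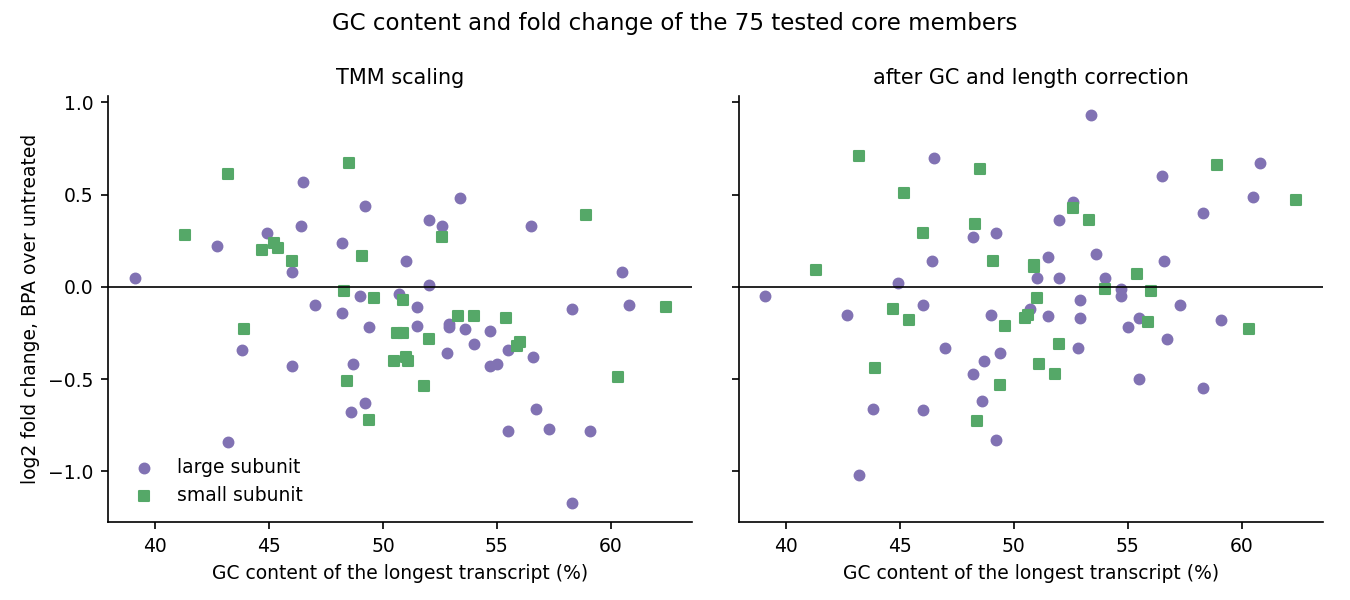
Log2 fold change (y axis, BPA over untreated) against GC content of the longest transcript in percent (x axis) for the 75 tested core members, with TMM scaling (left) and after correction for GC content and gene length (right); circles are large and squares small subunit genes. The points slope down on the left (Spearman -0.32) and slightly up on the right (0.17).

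Ribosomal protein genes have many processed copies, and reads that match a gene and its copies equally can be lost or shared. Of the 83 members with an annotated coding sequence, 36 had a copy of at least 95% identity with a row of its own in the table, 52 such rows in all. These held more than 10% of the summed counts of gene and copies for 8 members, among them Rpl29 (41.7%), Rps2 (28.5%), Rplp0 (26.3%), Rpl35 (17%), Rpl23a (11.3%), Rps18 (10.6%) and Rpl15 (10.4%). Adding the counts of all copies to their gene left 4 members higher and 13 lower. Rpl15 then stood at -0.86 and Rpl21 at 0.37. Of the genes the name rule leaves out, Rps3a1 rose and Fau fell. Rps3a1 was at 507, 521 and 525 CPM untreated and 869, 858 and 742 CPM with BPA (0.67, SE 0.13, edgeR adjusted p = 0.00737). It stood at 0.82 after the GC and length correction, and did not pass in fits lacking untreated replicate 1 or 2 (up to 0.0669). Fau, a fusion of a ubiquitin-like protein with a small subunit protein, was at 1080, 877 and 860 CPM and then 597, 612 and 660 CPM (-0.59, SE 0.14, edgeR adjusted p = 0.0188). It was at -0.05 after the correction (adjusted p = 0.86), and did not pass in the fits lacking untreated replicate 1, untreated replicate 2 or BPA replicate 1 (up to 0.132).

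Proteins of the mitochondrial ribosome form a separate family that translates the mitochondrial genome. Of 75 tested, 0 rose by edgeR and 17 fell (22.7%). Of all genes, 10.6% passed in either direction and 6.28% were lower. The median was -0.37, beside -0.17 for the cytosolic family and 0.10 for all genes. Mrpl42 went from 28.9, 40.3 and 34 CPM to 10.9, 12.1 and 10.5 CPM (-1.62, SE 0.28, edgeR adjusted p = 0.0035). Mrpl20 was at 248, 219 and 197 CPM and then 86.5, 119 and 93.1 CPM (-1.15, SE 0.17, edgeR adjusted p = 0.00161), and Mrpl11 was at -1.05 (SE 0.21, edgeR adjusted p = 0.00908). Mrpl42 and Mrpl20 passed without each library in turn, and Mrpl11 did not pass without untreated replicate 1. The difference between the families was not tested.

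Genes that work with the ribosome were read from 5 textbook lists. Of 26 elongation and initiation factors and other TOP messenger RNAs, 5 fell and 2 rose (26.9%, beside 10.6% of all genes), with a median of -0.13. Eif5a, which relieves stalled ribosomes, went from 2781, 2797 and 2658 CPM to 1649, 1880 and 1448 CPM (-0.73, SE 0.13, edgeR adjusted p = 0.0048) and passed without each library. Eif3h (-0.66, SE 0.13, edgeR adjusted p = 0.00755) and Eef1d (-0.62, SE 0.13, edgeR adjusted p = 0.0121) fell as well, not passing without untreated replicate 2, and Eef1d also without untreated replicate 1. Of 19 genes of RNA polymerase I and its factors, which make the large ribosomal RNA precursor, 0 passed by edgeR. After the GC and length correction 4 passed, 2 higher and 2 lower, beside 937 higher and 1276 lower of 13273 genes. The most abundant of the 19, Polr1c and Ubtf, were at 0.33 (SE 0.14) and 0.08 (SE 0.13) before the correction. Polr1c was one of the 4, at 0.46 after the correction (adjusted p = 0.00446).

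The assembly lists were mixed. Of 46 genes of small subunit assembly, 4 rose and 5 fell (19.6%, beside 10.6% of all genes), with a median of 0.39. Nop14, a processome protein, rose from 32.6, 29.5 and 47.1 CPM to 127, 85.6 and 169 CPM (1.80, SE 0.27, edgeR adjusted p = 0.00145), while Nhp2l1, which binds box C/D RNAs, fell from 384, 374 and 398 CPM to 217, 224 and 216 CPM (-0.81, SE 0.13, edgeR adjusted p = 0.00243). Both passed without each library. Rrp36 fell by 0.78 on the log2 scale (SE 0.17, edgeR adjusted p = 0.0121) and did not pass when any 1 untreated library or BPA replicate 1 was left out. Of 49 tested genes of large subunit assembly and export, 1 rose and 5 fell (12.2%, near the 10.6% of all genes), with a median of 0.10, the same as all genes. Bop1 (-0.88, SE 0.19), Wdr12 (-0.89, SE 0.23), which form a complex with Pes1, and Rrp1 (-0.67, SE 0.17) fell, with edgeR adjusted p = 0.012, 0.028 and 0.0256. All 3 did not pass in the fits lacking untreated replicate 1, untreated replicate 2 or BPA replicate 1, Wdr12 and Rrp1 also without BPA replicate 3, and Wdr12 also without untreated replicate 3. Rrp36 and Rrp1 did not pass after the GC and length correction (adjusted p = 0.0659 and 0.112).

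Of 19 nucleolar and small nucleolar RNA-binding proteins, 3 fell and none rose by edgeR (15.8%, beside 10.6% of all genes), with a median of -0.03. Nhp2 and Nop10, both components of the box H/ACA particles that pseudouridylate ribosomal RNA, were among them. Nhp2 was at 364, 355 and 358 CPM untreated and 123, 132 and 145 CPM with BPA (-1.43, SE 0.14, edgeR adjusted p = 1.0e-04), and passed without each library. Nop10 went from 90.8, 57.1 and 57 CPM to 34, 29.6 and 28.8 CPM (-1.15, SE 0.24, edgeR adjusted p = 0.0107), not passing without untreated replicate 1. Pa2g4 was at -0.55 (SE 0.14, edgeR adjusted p = 0.0242) and did not pass when any 1 untreated library or BPA replicate 1 was left out.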

How the data were processed

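RNA from 3 untreated and 3 BPA-treated cultures was sequenced after TruSeq RNA v2 preparation, which does not mark strand. The deposited table holds raw counts per Ensembl gene, which the authors made with TopHat2 2.0.9, HTSeq and build mm10, per the submitters' processing notes. The annotation release, the HTSeq version and the treatment of reads with several alignments were not given in the sources used here. FPKM values in the same table are the authors' too, per the file headers. They scale with the summed gene counts of each library and a gene length, so levels between genes are given per kb of GENCODE vM21 coding sequence.

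Counts were filtered with filterByExpr, scaled by TMM and tested with edgeR 4.0.16 in R 4.3.3 (robust quasi-likelihood test), with Benjamini-Hochberg adjustment over all 13287 tested genes and a threshold of 0.05. The script was tested on simulated data. Shares and ratios per library were compared by exact permutation tests with SciPy 1.17.1. Copies were found with blastn 2.17.0. The correction for GC and length used a lowess fit (span 0.3) per library as edgeR offsets.

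Alternatives were other scalings and filters, DESeq2 1.42.0, limma-voom (limma 3.58.1), a replicate block, a threshold of 0.01, copies added, and leaving out each library. Named were all members past the threshold, the 10 with the highest mean FPKM, each paralogue with its parent, the stalk proteins and Rpsa, the 5 largest and 5 smallest core changes, and up to 3 genes past the threshold per other list or, where none passed, the 2 most abundant. A few genes that these rules would name are not reported here by name, although they stay in the fits and the counts. Members and lists were chosen with earlier results of these data known.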

Additional observations from a re-analysis of the deposited data

How the results depend on the processing

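Members higher and lower were 4 and 13 with TMM. The higher count was 10 with library size scaling, 7 each with upper quartile scaling, DESeq2 and limma-voom, 18 with the GC and length correction, 20 with that correction and a replicate block, and 0 at a threshold of 0.01. The lower count was 21 with DESeq2 and 4 at 0.01. Over all genes, higher and lower were 578 and 834 with TMM and 843 and 798 with library size scaling. They were 616 and 899 with upper quartile scaling, 919 and 1206 with DESeq2, and 506 and 921 with limma-voom. With the GC and length correction they were 937 and 1276, and 956 and 1349 with the block added. The cause was not tested. With the replicate block alone the member counts were 6 and 15, beside 771 and 1036 of all genes. Samples of the same number correlated at -0.0205, 0.0612 and 0.0672 in their deviations, and those of unlike number at -0.0792 to 0.028. Values from 3 libraries a group cannot settle whether the numbers pair cultures. The labels state no pairing, so the main fit used none. Without 1 library in turn, 0 to 11 members were higher and 3 to 30 lower. Over all genes these fits called 166 to 1251 higher and 285 to 1653 lower. Genes past the threshold then numbered 1 to 11 for elongation and TOP genes, 0 to 3 for RNA polymerase I, 2 to 23 for small subunit assembly, 0 to 25 for large subunit assembly, 1 to 6 for nucleolar proteins and 2 to 25 for mitochondrial ribosomal proteins. For RNA polymerase I the number was 1 with library size scaling and 4 with the GC and length correction. That correction gave 15 for small subunit assembly and 8 for nucleolar proteins, beside 937 higher and 1276 lower of 13273 genes.

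Rpl13a, Rpl8 and Rps15 reversed to 0.18, 0.40 and 0.47 with the GC and length correction, and to 0.18, 0.40 and 0.46 with the replicate block added. The share of members differed by -0.702 points on counts, and by -0.877 to -0.453 without 1 library. On summed FPKM, a share of length-divided values, the difference was 0.232 points with overlapping groups, so no change was shown. The large to small ratio, -0.01 on FPKM, was 0.08 on counts, -0.09 as a difference of mean log2(FPKM + 1) and 0.02 per kb of coding sequence (the last chosen after seeing the data, as was adding all near-identical copies), and -0.03 to 0.01 without 1 library. Without 1 library the pair ratios differed by -1.67 to -1.33 for Rpl3l, 0.13 to 0.41 for Rpl7l1, 0.49 to 0.85 for Rpl10l, -0.22 to 0.42 for Rpl22l1, -0.31 to 0.57 for Rpl36al, 0.09 to 0.54 for Rpl39l, -1.41 to -1.21 for Rps4l and -0.77 to -0.63 for Rps27l. With 3 libraries a group, exact tests cannot go below 0.1.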
